A study of Mus musculus with 11 samples.

Results

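Reads of 9 genes of epithelial cells, Krt8, Krt18, Krt19, Krt7, Foxa1, Pgr, Csn3, Cited1 and Epcam, were followed through bone marrow endothelial libraries from healthy mice and from mice with mammary tumour metastases in bone. The genes were taken by symbol from a count table of 27179 Entrez genes, and all 9 were found. They had been picked with their values in these libraries in view, so their levels and group differences are given as a description and no test is used to support them. The name mammary and tumour transcripts states where such reads could come from, and nothing in the table identifies their source, so they are called epithelial transcripts here.

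The study asked how endothelium changes where mammary cancer cells grow in bone. Met libraries (n = 3) held endothelial cells of tumour-infiltrated marrow, non-met libraries (n = 6) the same cells of neighbouring tumour-free marrow, and control libraries (n = 2) those of healthy, age-matched mice; all mice were BALB/c. The tumour was 4T1.2, a BALB/c mammary cancer line that spreads to bone, carrying red fluorescent protein, whose signal guided the microdissection. Cells high for CD31 (the product of Pecam1) and for endomucin (the product of Emcn) were sorted, and cDNA was amplified from the low RNA input with the SMART-Seq v4 kit.

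The methods describe pools of 1 or more mice, and the labels name 2 control pools and 4 burdened pools. Non-met 1 and non-met 5 came from burdened pool 1. Pool 2 was split into non-met 2, non-met 6 and met 1. Non-met 3 shared pool 3 with met 2, as non-met 4 shared pool 4 with met 3. Libraries of one pool are therefore not independent animals, and *P* values measure the spread between libraries. Total reads in genes ranged from 733342 in non-met 4 to 19539761 in control 1. A count of 3 reads, the floor, corresponded to between 0.154 and 4.09 CPM (reads of a gene per 1000000 reads in genes). In a fold of mean CPM, a denominator group with no library above the floor was set to it. Such folds are given as at least. Endothelial genes were abundant in all 11 libraries, with Pecam1 at 936 to 3142 CPM, Emcn at 265 to 1317 CPM and Cdh5, encoding VE-cadherin, at 849 to 1982 CPM.

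Keratins 8, 18, 19 and 7 are the intermediate filament proteins of simple epithelia. They assemble as pairs of one type I chain (keratin 18 or 19) and one type II chain (keratin 8 or 7), and are classical markers of luminal mammary cells and of carcinomas. Foxa1 is a forkhead transcription factor and Pgr the progesterone receptor, and both mark the hormone-sensing luminal cells of the mammary gland. Cited1 encodes a transcriptional co-regulator of the same lineage, Csn3 the milk protein kappa-casein and Epcam an epithelial adhesion molecule.

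Promoters of the partner keratins Krt8 and Krt18 and of the hormone-sensing pair Pgr and Foxa1, on which the comparison turns, are shown first. Each is RefSeq sequence of GRCm38.p6 from 250 bases before to 50 bases after an annotated start, 5′ to 3′ on the gene's strand, and 7 of the 9 genes had an entry. Capitals mark matches on either strand to the core promoter motif TATAAA, the Sp1 motif GGGCGG, the AP-1 motif TGANTCA, the forkhead motif TGTTTAC, the E-box motif CACCTG or the NF-Y motif CCAAT.
Krt8, chr15:102004293-102004592, minus strand: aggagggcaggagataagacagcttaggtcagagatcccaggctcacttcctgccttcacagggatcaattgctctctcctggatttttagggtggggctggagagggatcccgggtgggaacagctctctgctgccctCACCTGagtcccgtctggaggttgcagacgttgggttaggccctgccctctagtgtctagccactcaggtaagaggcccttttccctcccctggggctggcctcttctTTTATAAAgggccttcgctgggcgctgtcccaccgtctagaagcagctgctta
Krt18, chr15:102027966-102028265, plus strand: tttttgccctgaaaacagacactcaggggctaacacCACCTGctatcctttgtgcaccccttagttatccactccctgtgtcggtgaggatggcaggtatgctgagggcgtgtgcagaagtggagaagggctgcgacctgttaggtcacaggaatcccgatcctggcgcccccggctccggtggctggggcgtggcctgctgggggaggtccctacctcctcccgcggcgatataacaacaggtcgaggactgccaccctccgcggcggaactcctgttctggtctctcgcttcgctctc
Foxa1, chr12:57546062-57546361, minus strand: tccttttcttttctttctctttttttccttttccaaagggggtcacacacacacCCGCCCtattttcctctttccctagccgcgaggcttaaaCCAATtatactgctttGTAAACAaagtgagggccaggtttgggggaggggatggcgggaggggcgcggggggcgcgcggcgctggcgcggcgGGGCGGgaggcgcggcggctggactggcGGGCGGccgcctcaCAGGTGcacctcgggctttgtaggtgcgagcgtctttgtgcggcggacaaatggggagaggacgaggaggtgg
Pgr, chr9:8899583-8899882, plus strand: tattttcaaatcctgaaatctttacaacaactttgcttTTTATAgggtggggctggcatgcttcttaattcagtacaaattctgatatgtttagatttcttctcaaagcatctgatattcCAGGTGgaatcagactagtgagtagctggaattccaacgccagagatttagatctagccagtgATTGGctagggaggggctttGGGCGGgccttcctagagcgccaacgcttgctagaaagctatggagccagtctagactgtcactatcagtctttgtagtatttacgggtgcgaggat
All 4 windows held CACCTG, which was present in 20.2% of 32851 promoters of the same length. Krt8 held TATAAA on both strands, the matches overlapping, and Pgr held it once, against 13.6% of promoters. Foxa1 held 3 matches to GGGCGG (35.7% of promoters), 1 to CCAAT (37.4%) and 1 to TGTTTAC (3.65%), and Pgr held 1 GGGCGG and 1 CCAAT. None of the 4 held TGANTCA, which 7.81% of promoters held. GC content was 58.0% in Krt8, 61.3% in Krt18 and 62.3% in Foxa1, against 43.7% in Pgr and a median of 52.7% over all promoters. The letters are a description of the windows and were not related to the read counts.

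Krt8 (Entrez 16691) and Krt18 (Entrez 16668) lie next to each other on chromosome 15, at chr15:101996711-102004342 and chr15:102028216-102032026, 23873 bases apart, and Krt7 (chr15:101412403-101427806) lies 568904 bases from Krt8. Krt19 is at chr11:100140810-100145926, Foxa1 at chr12:57540628-57548029, Pgr at chr9:8898900-8968611, Csn3 at chr5:87925579-87932550, Cited1 at chrX:102247378-102252181 and Epcam at chr17:87635979-87651127 (GRCm38, the build of mm10). All 9 are protein-coding, and the reads were counted over their exons. The annotation names a pseudogene copy of Krt8, Krt8-ps, that had no row in the table, so some reads shared with such a copy could have been lost or assigned to Krt8. Foxa1 overlaps Ttc6 and Csn3 overlaps 1700066N21Rik, both at 0 reads in all 11 libraries.

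All 4 keratins were low in control marrow endothelium and had their highest levels in burdened bone, on both sides of the microdissection. Krt8 had 5 and 2 reads in the control libraries (0.256 and 0.398 CPM). Over the non-met libraries it ranged from 1 read in non-met 1 (0.149 CPM) to 116 reads in non-met 3 (28.4 CPM), with a median of 16.7 CPM. In met 1, 2 and 3 it had 26, 172 and 42 reads, or 10.2, 31.4 and 4.79 CPM. The met libraries lay above both controls and overlapped the non-met libraries, 5 of 6 of which also had more than 3 reads. The mean was 0.327 ± 0.10 CPM (SD, n = 2) in control, 13.6 ± 10.9 CPM (n = 6) in non-met and 15.5 ± 14.1 CPM (n = 3) in met, which makes met 47.3-fold higher than control and 1.14-fold higher than non-met. Both values rested on single libraries: without met 2 met was 22.9-fold higher than control and 0.551 of non-met. Without control 1 met was at least 25.9-fold higher than control, with the 2 reads of control 2 set to the floor. Without non-met 1 or non-met 2 met was 0.949 or 0.964 of non-met. Because these are bulk libraries of sorted cells, fewer cells with a transcript and less of it per cell cannot be told apart.

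Krt18, the usual partner of keratin 8, followed the same order of groups against control. It had 4 and 5 reads in control (0.205 and 0.994 CPM). The non-met libraries ranged from 0.448 CPM in non-met 1 to 28.8 CPM in non-met 6, with a median of 11.3 CPM. The met libraries had 13, 81 and 15 reads, or 5.10, 14.8 and 1.71 CPM. Here the mean of met, 7.20 ± 6.78 CPM (n = 3), was below that of non-met, 12.3 ± 11.2 CPM (n = 6), at 0.586 of it (0.277 without met 2), and the 2 groups overlapped.

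Krt19, the smallest keratin, which lacks a tail domain, had 7 and 2 reads in control (0.358 and 0.398 CPM). It was above the control level in all 6 non-met libraries, from 0.597 CPM in non-met 1 over a median of 8.84 CPM to 34.9 CPM in non-met 6. In met it had 6, 106 and 28 reads (2.36, 19.3 and 3.19 CPM). Met was 22-fold and non-met 31.4-fold higher than control in mean CPM, which became 7.34-fold without met 2 and 19.2-fold without non-met 6. Without control 1 these folds were at least 13.9 and at least 19.9, with the 2 reads of control 2 set to the floor. The order of met and non-met was not stable: met was 0.700 of non-met in mean CPM, 0.234 of it without met 2 and 1.14 times it without non-met 6. Over the summed reads of each group the ratio was 1.33 (95% counting interval 1.05 to 1.70), where met 2 held 106 of 140 met reads. The interval covers counting only and not the spread between libraries. Krt7, a type II keratin of ducts, had the fewest reads of the 4, with 4 and 0 reads in control, at most 22 reads in non-met (5.39 CPM in non-met 3) and 2, 20 and 6 reads in met (0.785, 3.65 and 0.684 CPM). It had more than 3 reads in 5 of 11 libraries.

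**Figure D1:**
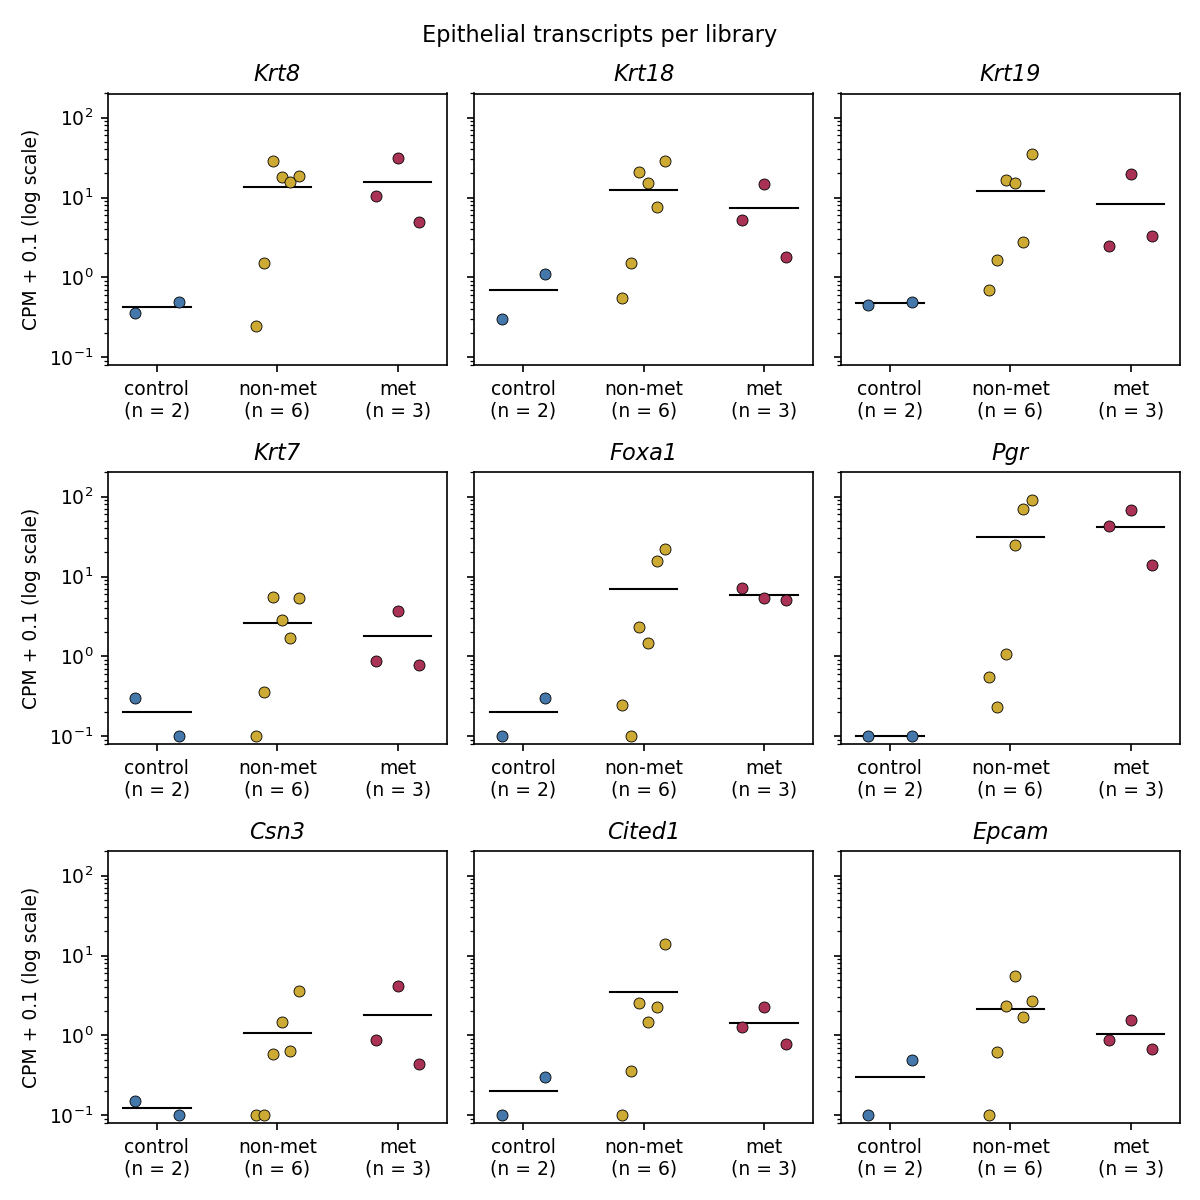
CPM of each of the 9 genes on a log scale after adding 0.1, 1 point per library, with the mean of each group as a line (control n = 2, non-met n = 6, met n = 3). The met points lie above the control points for all 9 genes and within or beside the wide span of the non-met points, where non-met 1 and non-met 2 (the first 2 points from the left) sit near the controls.

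Pgr, the nuclear receptor for progesterone, was absent from the control counts and ranged widely within non-met. No read was counted in 24569532 control reads. In non-met 1, 2 and 3 it had 3, 1 and 4 reads (0.448, 0.130 and 0.980 CPM), and in non-met 4, 5 and 6 it had 18, 129 and 105 reads (24.5, 69.3 and 91.6 CPM). Met 1, 2 and 3 had 108, 373 and 122 reads, or 42.4, 68.1 and 13.9 CPM. Mean CPM was at least 111-fold higher in met and at least 83.1-fold higher in non-met than in control, where the bound takes 3 reads in each control library, a mean of 0.375 CPM. These bounds were 69.5 and 52.2 without control 1 and 270 and 203 without control 2, and that of non-met was 50.9 without non-met 6. Met averaged 41.5 ± 27.1 CPM (n = 3) and non-met 31.2 ± 39.9 CPM (n = 6), a difference smaller than the spread in either group. The ratio of these means, 1.33, was 0.903 without met 2 and 2.17 without non-met 6.

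Foxa1, a pioneer factor for steroid receptor binding, had 0 and 1 read in control. The non-met libraries had 1, 0, 9, 1, 29 and 25 reads, from 0 CPM in non-met 2 over a median of 1.78 CPM to 21.8 CPM in non-met 6. In met it had 18, 29 and 44 reads, or 7.07, 5.29 and 5.02 CPM. The met libraries were thus closer to each other (SD 1.11 CPM around a mean of 5.79 CPM) than for Pgr or the keratins, while the non-met SD of 9.42 CPM exceeded its mean of 6.85 CPM. In mean CPM, with control set to the floor, met was at least 15.4-fold higher than control, and at least 9.71-fold without control 1. Over the summed reads of each group, met held 91 Foxa1 reads and control 1, a ratio of CPM of 133 with a 95% counting interval of 23.3 to 5314. Such intervals cover counting error only and treat each read as a separate molecule. The reads carry no molecular identifiers, so copies made in amplification could not be told apart and the intervals can be too narrow.

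Cited1, Epcam and Csn3 stayed near the limit of detection. Cited1 had 0 and 1 read in control, at most 16 reads in non-met (14.0 CPM in non-met 6, with the other non-met libraries at 2.45 CPM or below) and 3, 12 and 6 reads in met (1.18, 2.19 and 0.684 CPM). Epcam had 0 and 2 reads in control, 0 to 9 reads in non-met, where its highest CPM of 5.45 in non-met 4 rested on 4 reads, and 2, 8 and 5 reads in met (0.785, 1.46 and 0.570 CPM). Csn3 had 1 and 0 reads in control, 0 to 4 in non-met and 2, 22 and 3 in met, so that 22 of its 36 reads came from met 2. On the same summed scale, the ratio of CPM of met to control was 39.5 for Csn3 (95% counting interval 6.51 to 1617), 30.7 for Cited1 (4.94 to 1270) and 11 for Epcam (2.55 to 98.9). These wide intervals follow from the 1 or 2 control reads of each gene.

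Across all 9 genes, the met libraries lay above the controls for 9 of 9, the non-met libraries for 2 of 9 (Krt19 and Pgr) and the met libraries above the non-met for none. The same non-overlap was found in 6.76%, 0.937% and 1.67% of the 11949 genes tested. Nothing is read from the members' counts, because the genes were chosen on these values. The summed CPM of the 9 genes was 1.07 and 2.58 in control, 1.79 to 221 in non-met and 30.9 to 150.2 in met.

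The keratins were next set against Pgr and Foxa1, library by library, as the share of keratin reads among the reads of Krt8, Krt18, Krt19, Krt7, Pgr and Foxa1 (exact Clopper-Pearson 95% interval). In control 1 the share was 100% of 20 reads (83.2 to 100%), and in control 2 it was 90.0% of 10 reads (55.5 to 99.7%). In met it was 27.2% of 173 reads (20.7 to 34.4%), 48.5% of 781 reads (45 to 52.1%) and 35.4% of 257 reads (29.6 to 41.6%). The intervals cover counting within a library and not the spread between libraries, and the control shares rest on few reads.

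The non-met libraries spanned both. Non-met 2 and non-met 3 had keratin shares of 97.3% (85.8 to 99.9%, 37 reads) and 95.7% (92.8 to 97.7%, 302 reads), and non-met 1 and non-met 4 had 66.7% (34.9 to 90.1%, 12 reads) and 66.1% (52.2 to 78.2%, 56 reads). Non-met 5 and non-met 6 had 24.4% (18.7 to 30.8%, 209 reads) and 43.5% (37.0 to 50.2%, 230 reads), close to the span of the met libraries. Keratin reads without Pgr reads in like number were therefore counted in some libraries of tumour-free marrow, and both together in others. The contrast had the most reads behind it in non-met 3, with 289 keratin reads and 13 reads of Pgr and Foxa1, against 379 and 402 reads in met 2.

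Levels of different genes were compared per kilobase of exon, as CPM divided by kilobases of exon (RPKM), since the Pgr transcript is longer than those of the keratins. On this scale the 4 keratins together exceeded Pgr and Foxa1 together in all 11 libraries. As a ratio the margin was narrowest in non-met 5, with 17.0 against 14.9 RPKM, and in met 1, with 11.5 against 8.37 RPKM. Met 2 had 44.3 against 11.5 RPKM and met 3 had 6.63 against 3.59 RPKM, while non-met 3 had 45.8 against 0.834 RPKM. Taken singly, Krt8 and Pgr stood at 5.65 and 6.15 RPKM in met 1, 17.4 and 9.88 RPKM in met 2, and 15.7 and 0.142 RPKM in non-met 3. The keratin share per kilobase was 57.9%, 79.3% and 64.8% in met and 53.2% to 99.4% in non-met.

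**Figure D2:**
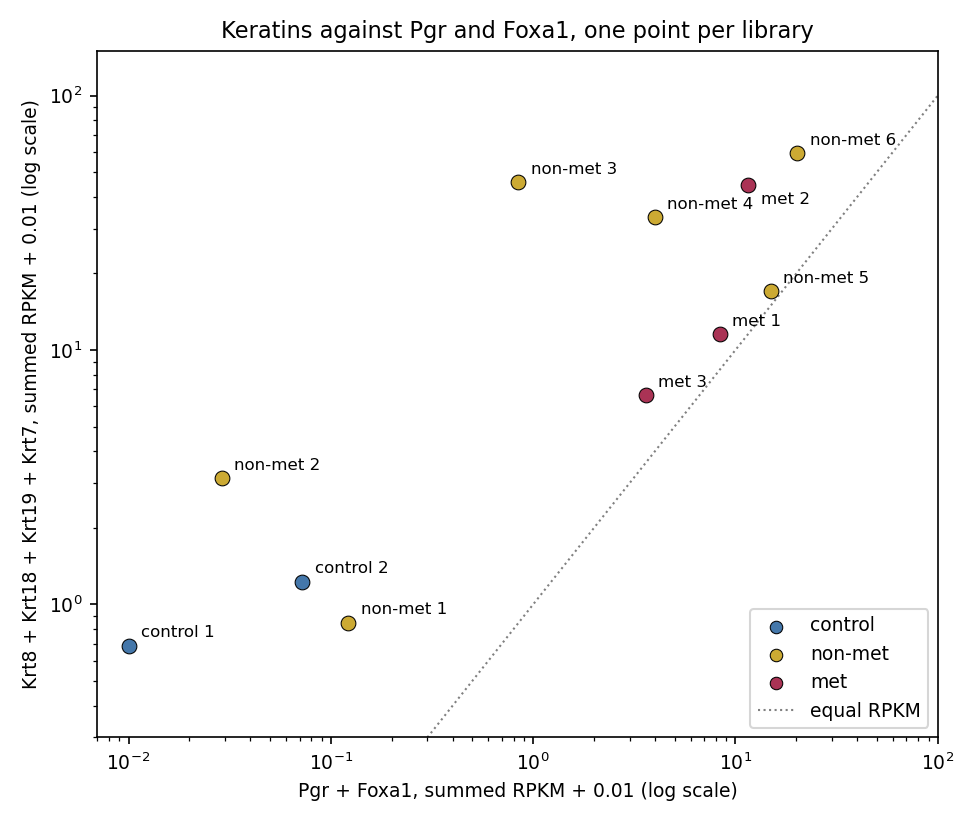
Summed RPKM of Krt8, Krt18, Krt19 and Krt7 (vertical, log scale) against summed RPKM of Pgr and Foxa1 (horizontal, log scale), each after adding 0.01, with 1 point per library and a dotted line of equal RPKM. All 11 points lie above the line, and non-met 3 has 45.8 RPKM of keratins at 0.834 RPKM of Pgr and Foxa1, where met 2 has 44.3 at 11.5.

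**Figure D3:**
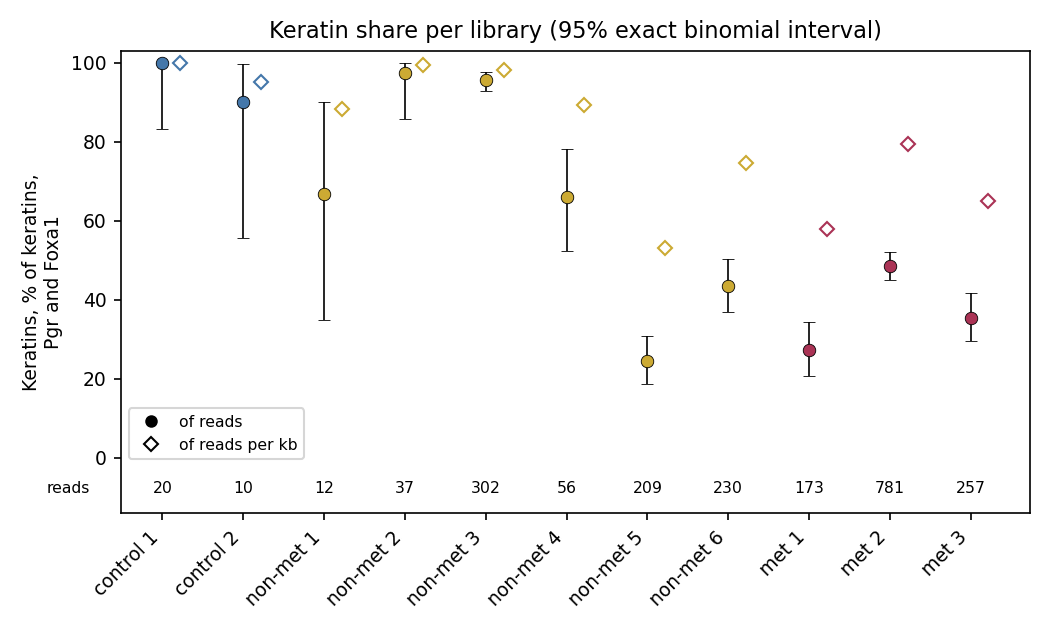
Share of the keratins among keratin, Pgr and Foxa1 reads in each library (filled points, bars showing the exact 95% binomial interval, number of reads at the foot) and the same share per kilobase (open diamonds, no interval). The met libraries lie at 27.2% to 48.5% of reads, the controls at 90.0% and 100%, and the non-met libraries from 24.4% to 97.3%.

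Libraries of the same mouse pool differed from each other by large factors, also within one group. In pool 1, non-met 5 had 155 times the Pgr CPM of non-met 1 (95% counting interval 51.8 to 760), and 104 times its Krt8 CPM (17.3 to 4263, on a single Krt8 read in non-met 1). In pool 2, non-met 6 exceeded non-met 2 in Krt8 by 12.8 times (5.90 to 29.4), and the met library fell between them, at 7.13 times non-met 2 (3.40 to 16.0). For Pgr, met 1 also fell between them, at 326 times non-met 2 (57.2 to 12983, on a single Pgr read in non-met 2) and 0.463 of non-met 6 (0.351 to 0.611).

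The pools with 1 met and 1 non-met library did not share a direction for Pgr. In pool 3, Krt8 had a ratio of met 2 to non-met 3 of 1.10 (0.868 to 1.41), Krt19 had a ratio of 1.18 (0.860 to 1.63) and Krt18 of 0.718 (0.523 to 0.987), while Pgr was 69.5 times higher in met 2 (26.9 to 256) and Foxa1 was 2.40 times higher (1.11 to 5.77). In pool 4, Krt8 in met 3 was 0.270 of that in non-met 4 (0.142 to 0.548) and Pgr 0.567 (0.344 to 0.988). Krt18 and Krt19 were at 0.114 (0.0489 to 0.274) and 0.213 (0.103 to 0.474), and Foxa1 at 3.68 (0.627 to 149, on a single Foxa1 read in non-met 4). Non-met 4 was the shallowest library, with 733342 reads.

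Within each set the genes did not keep one ratio to each other across libraries. Krt8 took 56.9% of the reads of the 4 keratins in non-met 5 (42.2 to 70.7%) and 55.3% in met 1 (40.1 to 69.8%), but 21.0% in non-met 6 (13.5 to 30.3%), where Krt19 took 40.0% (30.3 to 50.3%) against 9.80% in non-met 5 (3.26 to 21.4%). Pgr took 92.8% of the reads of Pgr and Foxa1 in met 2 (89.8 to 95.1%) and 73.5% in met 3 (66.1 to 80.0%), but 30.8% of 13 reads in non-met 3 (9.09 to 61.4%). As a description over the 11 libraries, which share pools and differ in depth, Pearson's r of log2 CPM was 0.948 between Krt8 and Krt18, 0.959 between Krt19 and Krt7, 0.917 between Pgr and Foxa1, 0.799 between Krt8 and Pgr and 0.611 between Foxa1 and Epcam, the lowest of all pairs.

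The groups were compared in a model fitted over 11949 genes with voomLmFit of edgeR, and Benjamini-Hochberg adjusted *P* values were taken over all of them. All 9 genes passed the filter on low counts, and some passed only through the groups in which they were high. In met against non-met, 0 of 9 were called at an adjusted *P* below 0.05, where 0.418% of all genes were called. The log2 fold changes ran from -1.13 for Epcam to 1.94 for Pgr (SE 1.73), and 4 of 9 were above 0. The Pgr value was 0.43 with the quasi-likelihood test and 0.17 with DESeq2. In met against control and non-met against control, 0 of 9 were called as well, where 1.2% and 0.636% of all genes were called. The fitted log2 fold changes were all above 0, from 2.06 (Epcam) to 8.85 (Pgr, SE 2.49, adjusted *P* = 0.0793) and from 3.19 (Epcam) to 6.91 (Pgr, SE 2.54, adjusted *P* = 0.172). Without control 2, which held the control reads of Epcam, the values of Epcam were 5.51 and 6.69.

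Since Pgr had no control read, its fitted values against control depend on the small count the model adds and are not bounds. At an unadjusted *P* below 0.05 the count of members was 0, 1 and 2 for met against non-met, met against control and non-met against control, where 7.24%, 14.1% and 17% of all genes passed. The quasi-likelihood test of edgeR and limma-trend called 0 members in each comparison. Of all genes, the quasi-likelihood test called 0.142%, 0.0837% and 0.117% and limma-trend 0.0167%, 0.0753% and 0.067%. DESeq2 called 0, 1 and 1 members, Pgr in both comparisons with control, beside 2.73%, 1.91% and 2.23% of all genes. The median log2 fold change of the 9 genes was -0.50 in met against non-met, beside 0.08 over all genes tested. Against control the medians were 3.94 for met and 4.18 for non-met, beside -0.09 and -0.33 over all genes.

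Other genes of the mammary gland were taken from 4 lists that exclude the 9 members. None of their tested genes was called in any of the 3 comparisons (voomLmFit): 4 of 18 epithelial junction genes and regulators, 9 of 12 hormone-sensing genes, 5 of 14 alveolar and milk genes and 5 of 12 basal genes were tested. At an unadjusted *P* below 0.05, the counts in these lists were 0, 2, 0 and 1 in met against non-met, 0, 1, 1 and 3 in met against control, and 0, 2, 1 and 1 in non-met against control, beside the same 7.24%, 14.1% and 17% of all genes. The genes of these lists that the filter left out include some without any read. Csn2, Csn1s2a, Csn1s2b and Wap (milk proteins), Krt5 (the basal keratin), Oxtr (the oxytocin receptor), Prss8, Ap1m2, Calca and Glycam1 had no read in any of the 11 libraries.

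Of the junction list, Spint2, a membrane serine protease inhibitor, was the highest in mean CPM (26.8), and it was present in all groups, at 17.2 and 31.2 CPM in control and 121 CPM in met 1. Cdh1, encoding E-cadherin, had 99 reads in control 2 and 53 in non-met 6 and at most 4 in each of the other 9 libraries. Cldn3, a claudin, had 84 reads in control 2 and at most 4 elsewhere, and Muc1, a luminal mucin, had 178 reads in met 3 and 72 in control 1. For 3 of these 4 genes, Cdh1, Cldn3 and Muc1, a control library was the highest or the next highest. Of this list only Spint2, Cdh1, Muc1 and Ovol1, an epithelial zinc finger factor, passed the filter, and the median log2 fold changes of these 4 were 0.48 in met against non-met, 0.41 in met against control and 0.30 in non-met against control.

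Of the hormone-sensing list, Xbp1, a secretory pathway factor that endothelium also expresses, had 303 to 819 CPM in all 11 libraries. Tbx3, a T-box factor, had 21.9 and 21.7 CPM in control, 0 to 57.6 CPM in non-met and 8.94 to 25.1 CPM in met. Greb1, an oestrogen-induced gene, had 14.3 and 0 CPM in control, 0 to 33.2 CPM in non-met, with more than 3 reads in 4 of 6 libraries, and 0, 0.182 and 0 CPM in met. Its log2 fold change in met against non-met was -4.85 (SE 2.13, adjusted *P* = 0.635, voomLmFit). Gata3, a luminal fate regulator, had 376 reads in control 2 and 91 in met 2 and at most 5 elsewhere. Wnt4, a secreted signal downstream of Pgr in the gland, was high in control (40.5 and 26.4 CPM), had 1 read in all non-met libraries together and 18 CPM in met 3 alone among met. Its log2 fold change in non-met against control was -6.45 (SE 1.53, adjusted *P* = 0.0512).

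Of the milk list, Mfge8, Plin2, Xdh and Kit had means of 260, 189, 173 and 123 CPM and were present in all 11 libraries. Csn1s1, a casein, had 80 reads in non-met 6 and none in any other library, and Lalba, encoding alpha-lactalbumin, had 1137 reads in control 1. Of the basal list, Mylk (159 CPM), Acta2 (31.1 CPM), Trp63 (13.2 CPM) and Myh11 (13.1 CPM) had the highest means. Mylk and Acta2 encode contractile proteins that mural cells also express. Over the tested genes, the median log2 fold changes of the hormone-sensing, milk and basal lists were -0.76, -0.15 and 0.69 in met against non-met, -0.10, 0.39 and 3.31 in met against control, and 0.66, 0.43 and 2.82 in non-met against control.

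Most other keratins had no reads or reads in single libraries. Besides the 4 keratins described, 50 keratin genes were in the table, of which 25 had no read in any library and 16 had more than 3 reads in at least 1 library. Only Krt20 (120 reads in non-met 3 and 172 in non-met 5) and Krt75 (123 reads in non-met 3 and 7 in non-met 4) did so in more than 1 library. Krt10 had 177 reads, all in non-met 5. The mean of Krt20 over the 11 libraries, 11.1 CPM, was above those of Krt19 (8.80 CPM) and Krt18 (8.78 CPM). These bursts in single libraries differ from the pattern of Krt8, Krt18 and Krt19, each of which had a read in all 11 libraries.

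That spread over libraries was put beside other genes of similar depth. The 9 members had 36 to 863 reads in total, and 5614 other genes fell in that range. Each member had a read in 8 to 11 libraries, against a median of 3 libraries for the others, of which 8.14% had a read in 8 or more. The library with the most reads held 22.5% to 61.1% of a member's reads (median 32.8%), against a median of 75.6% for the other genes. The members were picked with their values known, so this places them and tests nothing.

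Genes with the most similar profile over the 11 libraries were ranked by Pearson's r of log2 CPM among 10607 named genes that are not members and had at least 10 reads in at least 3 libraries. Nearest to Pgr outside the members were Trp63 (r = 0.932), Foxi1 (0.930), Ldha (0.881), Tmem184b (0.854) and Msx2 (0.851). Trp63 encodes p63, a factor of basal epithelium. Of the other basal genes, Krt5 had no read and Krt14 at most 3 reads per library, while Krt17 had 148 reads in met 3, and Tagln, an actin-binding protein that mural cells also express, had 254 reads in met 1, 154 in met 2 and at most 8 elsewhere. Nearest to Krt8 outside the members were Mmp3 (0.884), Lgals3 (0.874), Tbrg1 (0.872), Ppib (0.862) and Wfdc2 (0.858). Nearest to Csn3 outside the members were Col7a1 (0.857), Pacsin2 (0.824), Wfdc2 (0.817), Zranb3 (0.813) and She (0.789).

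Trp63 and Msx2 had nearly the same number of reads in each library that held more than 3, whatever its depth. Trp63 had 48, 46, 32, 37, 38 and 45 reads in non-met 4, 5, 6 and met 1, 2, 3 and none in the other 5 libraries. Its reads differed by 1.5-fold where the totals of those libraries differed by 12.0-fold. Msx2, a homeobox factor, had 33, 36, 33, 35 and 42 reads in non-met 5, non-met 6 and met 1 to 3, a span of 1.27-fold over totals that differed by 7.65-fold, and at most 1 read elsewhere. Their CPM was therefore higher in the shallower of these libraries. Pgr had 129, 105, 108 and 122 reads in non-met 5, non-met 6, met 1 and met 3, close to each other as well, but 4, 18 and 373 in non-met 3, non-met 4 and met 2. Over the libraries with more than 3 reads, the reads of Pgr spanned 93.3-fold (7 libraries), of Krt8 34.4-fold (9), of Foxa1 4.89-fold (6), of Cited1 4-fold (5) and of Epcam 2.25-fold (5). The part of depth in the members' values was not tested.

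**Figure D4:**
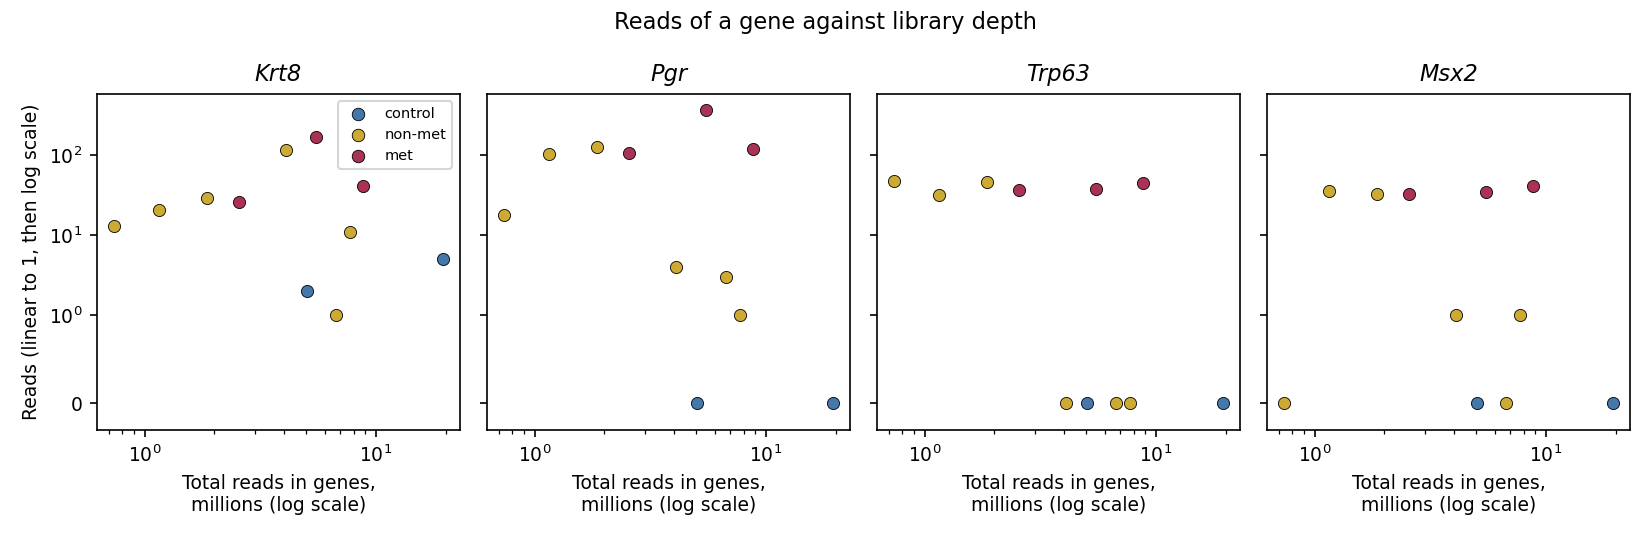
Reads of Krt8, Pgr, Trp63 and Msx2 (vertical, linear to 1 and log above) against total reads in genes (horizontal, log scale), 1 point per library. Trp63 stays at 32 to 48 reads and Msx2 at 33 to 42 reads in the libraries with more than 3 reads, while over all 11 libraries Pgr ranges from 0 to 373 and Krt8 from 1 to 172.

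Markers of other cells differed between the libraries as well. The summed CPM of 8 granulocyte genes was 81.4 and 403 in control, 312 to 4709 in non-met and 35.1 to 181 in met. All 8 had lower fitted values in met than in non-met (voomLmFit, 0 called, 7 at an unadjusted *P* below 0.05). Of all genes, 0.418% were called and 7.24% had an unadjusted *P* below 0.05. Ptprc, which encodes CD45, a surface protein used to gate blood cells out, had 255 reads in control 1 (13.1 CPM), 205 in met 2 (37.4 CPM) and no read in the other 9 libraries. The summed CPM of 10 stromal and osteolineage genes was 4234 and 12052 in control, 1011 to 4088 in non-met and 425 to 1892 in met. Of these Cxcl12, a chemokine of marrow stroma, was called lower than control in met (log2 fold change -4.07) and in non-met (-3.12). It was the only call among the 9 stromal genes tested, beside 1.2% and 0.636% of all genes. Of the 9, 2 were above 0 in met against control. In non-met against control 3 were above 0 (Runx2, Alpl and Sp7). Itga2b, a megakaryocyte integrin, was called higher in met than in control (voomLmFit, adjusted *P* = 0.0406). Ppbp of the same list was not tested and had all its 177 reads in control 2. Of the 10 endothelial genes 4 (Pecam1, Eng, Tie1 and Cdh5) were called higher in met than in non-met, beside 0.418% of all genes. Against control, 4 (Pecam1, Emcn, Tie1 and Cdh5) were called higher and Kdr lower in met, beside 1.2% of all genes. Eng was called lower in non-met than in control, beside 0.636%. The sort gated on CD31 and endomucin, and its sources name no gate on EPCAM. The part of these cells in the values of the epithelial transcripts was not tested.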

How the data were processed

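The authors deposited unnormalised counts, 1 row per Entrez gene, made by aligning to mm10 with Rsubread and counting with featureCounts and its built-in annotation; use of strand is not given in the sources used here. Not used were 1886 rows that neither RefSeq nor GENCODE named, 35 of ribosomal RNA and 1800 of predicted genes, 6 of them counted as both (1.94% to 15.7% of a library's counts), which left 23464 of 27179 and can differ from the authors' choice. CPM, and RPKM by the table's exon lengths, used the totals of all 27179 rows, 733342 to 19539761 reads. The rows not used thus stayed in these totals. The model and the share of all genes without overlap of groups used the totals of the rows left.

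The study's methods name voomLmFit with sample weights and filterByExpr (minimum count 10, minimum total 15), run here with edgeR 4.0.16, limma 3.58.1 and R 4.3.3 as 1 fit of 3 groups with TMM scaling and Benjamini-Hochberg adjustment at 0.05, and tested on simulated data. Alternatives were edgeR's quasi-likelihood test, DESeq2 1.42.0, limma-trend, other scalings, no filter, the mouse pool as a block, summed pools and leaving out each library. Folds of mean CPM were also taken without each library, a choice made after the data were seen. The labels give the pools, whose libraries come from the same mice. Their deviations from group means correlated at -0.23 to 0.02 over 10607 genes. The lowest values, -0.23 and -0.19, were of pairs within non-met, where subtracting the shared group mean itself lowers the correlation. They cannot show whether those libraries resemble each other. Log2 CPM used a prior count of 2.

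The members and lists were chosen with earlier results of these data known. Named were all members, up to 4 genes of each list with the highest mean CPM of at least 1 and the 5 genes outside the members nearest to Pgr, Krt8 and Csn3; genes given for reads in few libraries or none were chosen after their values were seen.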

Additional observations from a re-analysis of the deposited data

Results flagged for a closer look

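Cited1 in non-met 6 stood far from the other non-met libraries. Its level there was 14.0 CPM (16 reads), and the next highest was 2.45 CPM (10 reads in non-met 3), a gap of 0.824 of the whole range where Dixon's 95% limit for 6 libraries is 0.625. Of 13 values examined in this way over the non-met libraries 1 passed the limit, and chance alone passes about 1 group in 20. Non-met 6 also had the highest CPM of Krt18, Krt19, Foxa1 and Pgr, and it was among the shallower libraries, with 1146421 reads.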

How the results depend on the processing

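The count of members called was 0 in all 3 comparisons under voomLmFit, the quasi-likelihood test, limma-trend, both other scalings and summed pools. It became 1 (Pgr) with DESeq2 in met against control and in non-met against control, and 1 (Pgr) without the filter in met against control; leaving out each library in turn gave 0 to 0. With the mouse pool as a replicate block in met against non-met, 0 of 6 members tested were called and 28 of 9437 genes, beside 50 of 11949 without it, and the block changed no call of a member. The 4 mammary lists, with 0 calls, gained 1 with DESeq2 in met against non-met (Mylk) and 1 in non-met against control (Trp63). In non-met against control they gained 1 with RLE scaling (Xbp1), 1 with library size scaling (Wnt4) and 1 without the filter (Wnt4), and in met against control 1 without the filter (Lalba). Leaving out each library gave 0 to 1 calls in met against control (Lalba, without control 2) and 0 to 2 in non-met against control (Lalba and Wnt4, without control 2; Wnt4, without met 2 or met 3). The cause was not tested.

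Of 165 alternative log2 fold changes of the members in met against non-met, 11 had the other sign, for Krt8, Krt19, Foxa1, Csn3 and Cited1; against control, 0 of 159 and 0 of 159 did. Without control 2, the values against control (met, non-met) became 7.97 and 7.08 for Foxa1, 5.96 and 6.75 for Cited1 and 5.51 and 6.69 for Epcam. Over all alternatives, Pgr ran from 0.17 to 2.84 in met against non-met, 6.68 to 11.3 in met against control and 4.36 to 11.1 in non-met against control. Genes called in the 3 comparisons numbered 50, 143 and 76, against 17, 10 and 14 by quasi-likelihood, 326, 228 and 266 by DESeq2, 2, 9 and 8 by limma-trend, 79, 429 and 184 without the filter, and 24, 55 and 33 with summed pools. The share called higher, 66.0%, 57.3% and 28.9%, was 53.3%, 55.0% and 38.6% with RLE and 73.8%, 46.3% and 13.8% with library size scaling, 6.44%, 60.1% and 98.5% with DESeq2, 17.6%, 70% and 78.6% with quasi-likelihood, 0%, 77.8% and 75% with limma-trend, 62.5%, 74.5% and 63.6% with summed pools, and 14.3% in met against non-met with the block. Library size scaling moved the median log2 fold change of all genes from 0.08, -0.09 and -0.33 to 0.14, -0.23 and -0.54. Per kilobase, 7 of 11 keratin shares moved outside their interval. Depth limits the low members: 1 read was worth 1.36 CPM in non-met 4.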
